A study of Homo sapiens with 18 samples.

Results

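In control Kasumi-1 cells, the peaks called with an antibody against ETO were compared with those called with an antibody against the Flag tag, both directed at the same tagged AML1-ETO fusion protein. A peak counted as shared when it overlapped a peak of the other antibody by at least 1 bp, and otherwise as an ETO-alone or a Flag-alone peak. The comparison covered 37426 control peaks, out of 85981 in the 4 single-antibody lists of the study, and sorted them into 12784 shared and 1480 ETO-alone anti-ETO peaks and 13316 shared and 9846 Flag-alone anti-Flag peaks. The study profiled binding by CUT&RUN, in which an antibody tethers a nuclease to its target inside permeabilised cells and the DNA cut loose there is sequenced. Its 18 libraries formed 6 groups of 3, from control cells or cells with knock-down (KD) of the microRNA miR-130a, each profiled with anti-ETO (Santa Cruz sc-134335), anti-Flag (M2, Sigma F1804) or mouse IgG. All groups shared the Kasumi-1 background with Flag-tagged AML1-ETO, a transduction, and sorting of viable GFP+ cells 3 days later. The control is a transduced control whose construct the labels do not name, and they do not say whether every fusion molecule in the cells carried the tag.

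Each group was represented by 1 deposited list of positions, with no score, height or value per library. The depth behind a call, the spread among the 3 libraries and the calls of the IgG libraries could therefore not be given, and all intervals below are 95% Wilson or Newcombe intervals that cover the counting of peaks only. Peak positions carry no expression values, so the identity of the cells was not checked against markers.

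Kasumi-1 is a line from an acute myeloid leukaemia with the t(8;21) translocation, which joins the DNA-binding Runt domain of RUNX1 (AML1) to nearly all of RUNX1T1 (ETO). The Runt domain, with its partner CBFB, binds the short RUNX core motif, while the ETO moiety forms oligomers and recruits NCoR corepressors and histone deacetylases. The fusion works in a complex with E proteins and with LMO2, LDB1 and LYL1, and occupies many enhancers and promoters of blood cell genes. An antibody against ETO reads the ETO moiety, and an antibody against Flag reads the added tag.

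Promoters of 3 kinds are printed as single examples, which do not stand for the sequence of their class. Each is the 250 bases before a RefSeq gene start on GRCh38.p14, printed 5′ to 3′ on the strand of the gene, with capitals for matches to 6 short motifs searched on both strands. These were the RUNX core TGTGGT, the E-box CANNTG, the ETS motif ACTTCCG, the AP-1 motif TGACTCA, the GC box GGGCGG and the CEBP motif TTGCGCAA. A match is a description of the letters and not a bound site. The promoters of OGG1 (a DNA glycosylase that removes oxidised guanine), GFI1 (a zinc finger repressor of granulocyte development) and RUNX1 lay wholly under peaks of both antibodies.
OGG1, chr3:9749702-9749951, plus strand: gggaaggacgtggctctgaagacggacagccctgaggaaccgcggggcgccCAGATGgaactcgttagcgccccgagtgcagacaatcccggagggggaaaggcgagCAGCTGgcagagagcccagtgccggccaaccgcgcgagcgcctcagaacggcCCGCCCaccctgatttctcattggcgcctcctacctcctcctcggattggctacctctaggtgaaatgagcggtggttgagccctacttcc
GFI1, chr1:92486100-92486349, minus strand: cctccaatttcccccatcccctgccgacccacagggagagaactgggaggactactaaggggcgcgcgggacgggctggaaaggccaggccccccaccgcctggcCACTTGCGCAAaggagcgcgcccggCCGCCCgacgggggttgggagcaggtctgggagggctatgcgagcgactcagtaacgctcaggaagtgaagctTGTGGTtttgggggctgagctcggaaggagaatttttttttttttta
RUNX1, chr21:34888700-34888949, minus strand: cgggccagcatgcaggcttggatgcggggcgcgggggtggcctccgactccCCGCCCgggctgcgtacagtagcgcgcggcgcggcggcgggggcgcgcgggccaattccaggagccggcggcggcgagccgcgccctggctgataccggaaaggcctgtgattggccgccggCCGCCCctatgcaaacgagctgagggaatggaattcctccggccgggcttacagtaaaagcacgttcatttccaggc
The promoters of TNPO1 (transportin 1, a nuclear import receptor) and RBM10 (an RNA-binding splicing regulator) lay wholly under the 2 widest ETO-alone peaks.
TNPO1, chr5:72816411-72816660, plus strand: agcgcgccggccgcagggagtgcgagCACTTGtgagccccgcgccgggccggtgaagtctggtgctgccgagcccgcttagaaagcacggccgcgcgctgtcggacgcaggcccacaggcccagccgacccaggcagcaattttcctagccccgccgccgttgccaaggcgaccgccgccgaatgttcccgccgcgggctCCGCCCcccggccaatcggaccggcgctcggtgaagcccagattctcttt
RBM10, chrX:47144971-47145220, plus strand: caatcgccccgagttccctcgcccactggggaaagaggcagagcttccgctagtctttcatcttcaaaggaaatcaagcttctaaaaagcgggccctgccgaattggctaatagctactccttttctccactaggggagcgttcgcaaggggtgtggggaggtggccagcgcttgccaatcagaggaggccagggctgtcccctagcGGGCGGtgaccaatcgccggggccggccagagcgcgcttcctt
The promoters of CDKN1A (the cell cycle inhibitor p21) and GPS2 (a subunit of the NCoR corepressor complex) met Flag-alone peaks, which covered 168 and 250 of the bases shown.
CDKN1A, chr6:36678464-36678713, plus strand: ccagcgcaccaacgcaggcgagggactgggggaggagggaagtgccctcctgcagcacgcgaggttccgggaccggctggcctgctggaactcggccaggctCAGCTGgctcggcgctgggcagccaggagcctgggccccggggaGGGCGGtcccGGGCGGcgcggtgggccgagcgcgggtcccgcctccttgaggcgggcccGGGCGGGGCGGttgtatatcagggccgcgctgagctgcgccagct
GPS2, chr17:7315361-7315610, minus strand: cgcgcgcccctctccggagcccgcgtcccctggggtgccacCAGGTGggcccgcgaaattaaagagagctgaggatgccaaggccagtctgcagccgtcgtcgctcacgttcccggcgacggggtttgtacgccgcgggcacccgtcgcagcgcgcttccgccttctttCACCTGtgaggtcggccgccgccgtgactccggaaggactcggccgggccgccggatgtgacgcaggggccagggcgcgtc
Of these 7 promoters, GFI1 held the RUNX core in the bases shown, with its first letter at position -47 from the start. Its E-box at -145 and CEBP match at -142 share letters. CDKN1A held 4 GC boxes, at -104, -94, -45 and -40, of which the last 2 share letters. GPS2 held 2 E-boxes and no GC box, and RBM10 held 1 GC box and no E-box.

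Seen from anti-ETO, nearly all sites were shared, whereas a large part of the anti-Flag list had no ETO call. Of the 14264 anti-ETO peaks, 89.6% (89.1 to 90.1) were shared and 10.4% (9.89 to 10.9) were ETO-alone. Of the 23162 anti-Flag peaks, 57.5% (56.9 to 58.1) were shared and 42.5% (41.9 to 43.1) were Flag-alone. Merging both lists gave 23636 regions, of which 12310 (52.1%) held both antibodies, 9846 (41.7%) Flag alone and 1480 (6.26%) ETO alone. The longer Flag list sets these shares in part: with it shortened to the ETO length by keeping its widest peaks, 72.6% of anti-ETO and 72.4% of anti-Flag peaks were shared, and 3914 anti-ETO peaks lacked Flag. The authors' deposited list of sites with both antibodies held 12247 intervals, and 12187 of them were identical to a merged region with both. It met 99.5% of the shared anti-ETO peaks and 0 peaks of either single class.

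Shared peaks were wider than peaks of 1 antibody. The median width was 495.5 bp for shared anti-ETO peaks (quartiles 337 and 835) and 257.5 bp for ETO-alone peaks (192 and 387). It was 572 bp for shared anti-Flag peaks (371 and 954) and 319 bp for Flag-alone peaks (225 and 419). Among anti-ETO peaks of at least 1 kb, 2368 were shared and 1 was ETO-alone. Among anti-Flag peaks of at least 1 kb, 3067 were shared and 106 were Flag-alone.

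The share with the other antibody climbed along the width bins of the anti-ETO list, from 69.4% (67.0 to 71.6) below 200 bp to 938 of 938 peaks at 1500 bp or more. Along the anti-Flag list it was 37.7% below 200 bp, 31.7% from 200 to under 300 bp and 38.3% from 300 to under 400 bp, and reached 98.7% (97.9 to 99.2) at 1500 bp or more. In each of the 8 width bins the anti-ETO peaks were the more often shared. A wider peak offers more bases to the overlap rule, and this part of the relation was not tested.

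**Figure D1:**
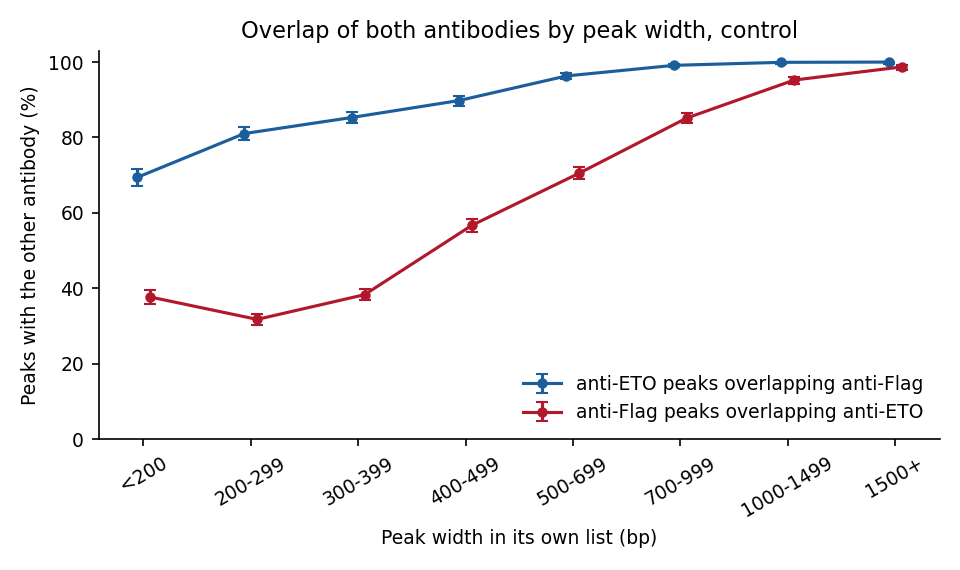
Percent of control peaks (y axis) that overlap a peak of the other antibody, in 8 bins of peak width in bp (x axis), for anti-ETO (blue) and anti-Flag (red), with bars for 95% Wilson intervals. The anti-ETO line runs from 69.4% to 100% and the anti-Flag line from 31.7% in its second bin to 98.7%.

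Where both antibodies called a site, the calls lay close on each other. The overlaps formed 13790 pairs, of which 10984 (79.7%) joined 1 anti-ETO with 1 anti-Flag peak. In these one-to-one pairs the median distance between centres was 55 bp, and 66.7% of pairs had centres within 100 bp. The anti-Flag peak was the wider in 66.4% of pairs, with a median Flag to ETO width ratio of 1.10. The anti-ETO peak lay wholly inside the anti-Flag peak in 41.1% of pairs, and the reverse held in 20.0%. Both ends were the same in 80 pairs. The Spearman rank correlation between both widths was 0.76 across the pairs, which are sites of the same 2 lists and not replicates. Of the remaining overlaps, 961 anti-ETO peaks met 2 or more anti-Flag peaks and 443 anti-Flag peaks met 2 or more anti-ETO peaks. Marginal overlaps were few, with 140 pairs (1.02%) sharing under 100 bp.

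Peaks of a single antibody often lay beside a call of the other one. A peak of the other antibody lay within 500 bp of 27.6% (25.4 to 29.97) of ETO-alone and of 15.7% (15.0 to 16.4) of Flag-alone peaks. Within 5 kb the order turned, with 44.7% (42.1 to 47.2) of ETO-alone and 54.7% (53.7 to 55.7) of Flag-alone peaks. The median gap to the other antibody was 10.3 kb for ETO-alone and 4.002 kb for Flag-alone peaks. Another Flag-alone peak lay within 5 kb of 45.8% of Flag-alone peaks, while 8.38% of ETO-alone peaks had another ETO-alone peak that close. The classes hold 9846 and 1480 peaks, so a neighbour of the same class is likelier for Flag-alone peaks by number alone. The size of that effect was not tested. Within each list no peaks lay closer than 177 bp (anti-ETO) or 171 bp (anti-Flag), and both values are 1 bp above the narrowest peak of the list.

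Position against genes separated Flag-alone peaks from all the others. Peak centres were set against the gene starts listed in RefSeq, which cover 15812 of 19974 protein-coding genes and none on chromosome 8, so shares near a start leave out that chromosome and are lower limits. Of the Flag-alone peaks, 19.3% (18.5 to 20.1) lay within 1 kb of a start, 51.7% lay elsewhere inside a protein-coding or long non-coding RNA gene and 29.0% lay outside. Of the shared anti-Flag peaks, 52.0% (51.2 to 52.9) lay within 1 kb of a start, a difference of 32.7 percentage points (31.5 to 33.9). The median distance to a start was 6.03 kb for Flag-alone and 0.851 kb for shared anti-Flag peaks. Peaks within 1 kb of the far end of a gene, and not within 1 kb of a start, made up 5.07% of Flag-alone and 3.27% of shared anti-Flag peaks. The shared minus Flag-alone difference was -1.80 points (-2.35 to -1.26). Peaks near a start were left out of this count but kept in the total. The difference therefore depends on the unequal shares near a start and does not compare the remaining peaks. Counting either end of any such gene, chromosome 8 included, the shares were 26.0% for Flag-alone and 57.5% for shared anti-Flag peaks.

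Over the whole anti-ETO list, ETO-alone peaks lay at starts somewhat more often than shared ones, though not at each local density (below). Their share within 1 kb of a start was 56.6% (54.1 to 59.2), against 51.1% (50.2 to 52.0) of shared anti-ETO peaks, a shared minus ETO-alone difference of -5.54 points (-8.23 to -2.82). It turned to 3.51 points when an overlap of 50% of both peaks was required. The ETO-alone share exceeded that of Flag-alone peaks by 37.3 points (34.6 to 40.0). Within 250 bp of a start lay 35.3% of ETO-alone, 28.8% of shared anti-ETO, 24.7% of shared anti-Flag and 6.71% of Flag-alone peaks. Among centres within 1 kb, those upstream of the start made up 46.1% of ETO-alone, 44.8% of shared anti-ETO, 41.9% of shared anti-Flag and 44.4% of Flag-alone peaks.

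**Figure D2:**
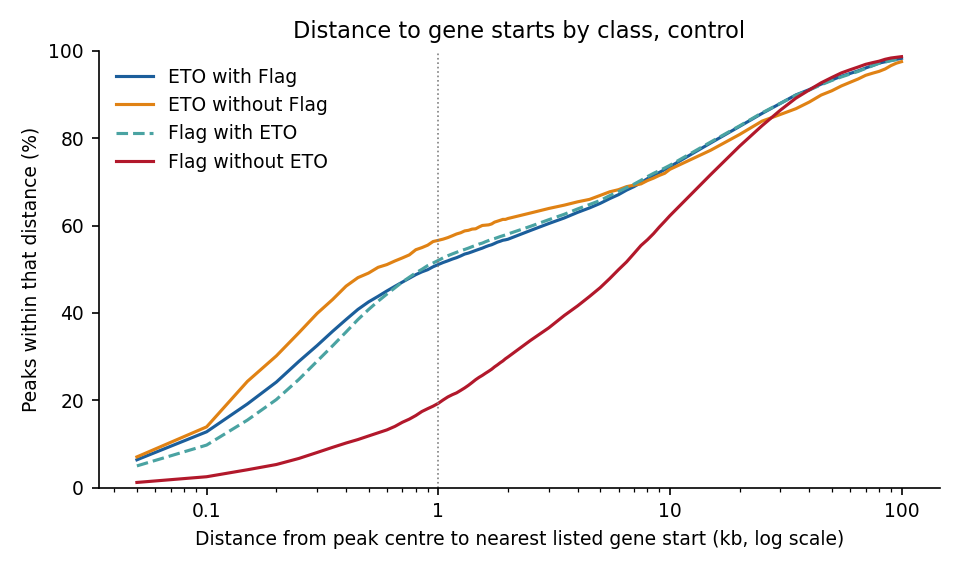
Percent of peaks (y axis) whose centre lies within a given distance in kb of the nearest listed gene start (x axis, log scale), by class, with a dotted line at 1 kb. At 1 kb the Flag-alone line (Flag without ETO, red) stands at 19.3%, and the 3 other classes stand between 51.1% and 56.6%.

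The difference for anti-Flag held within each width bin. Among anti-Flag peaks under 300 bp, 61.0% of shared and 22.9% of Flag-alone peaks lay within 1 kb of a start. From 500 to under 1000 bp the shares were 48.7% and 15.5%, and at 1 kb or more 52.6% and 7.59%, the last over 79 Flag-alone peaks. In the anti-ETO list the ETO-alone peaks had the higher share in each bin up to 1 kb, with shared minus ETO-alone differences of -7.81 points (-11.6 to -3.93) under 300 bp and -12.4 points (-21.4 to -2.33) from 500 to under 1000 bp.

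Both single classes moved in opposite directions with the local density of calls. Where at most 4 anti-Flag peaks lay within 500 kb, an anti-Flag peak itself not counted, 22.2% (20.6 to 23.9) of anti-Flag peaks were Flag-alone and 23.4% (21.5 to 25.4) of anti-ETO peaks were ETO-alone. Where 80 or more did, 57.6% (56.3 to 58.9) of anti-Flag peaks were Flag-alone and 3.27% (2.65 to 4.04) of anti-ETO peaks were ETO-alone. These dense stretches held 33.5% of all Flag-alone and 18.2% of all shared anti-Flag peaks. Density was counted on the anti-Flag list itself, so its bins are not independent of where Flag peaks were called. For a shared anti-ETO peak the overlapping anti-Flag peak was counted too, so its density is at least 1. This by itself raises the ETO-alone share of the lowest bin, and the size of that effect was not tested. Even in the densest stretches 41.6% of shared and 12.4% of Flag-alone anti-Flag peaks lay within 1 kb of a start. In the anti-ETO list the higher ETO-alone share near starts was not found in the sparser bins. With 0 to 4, 5 to 9 and 10 to 19 anti-Flag peaks it was 64.8%, 58.6% and 54.2%. The shared peaks there stood at 65.5%, 60.3% and 54.7%. With 20 to 39, 40 to 79 and 80 or more, ETO-alone peaks stood at 52.6%, 50.9% and 42.2%. The shared ones stood at 48.4%, 46.8% and 40.8%.

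**Figure D3:**
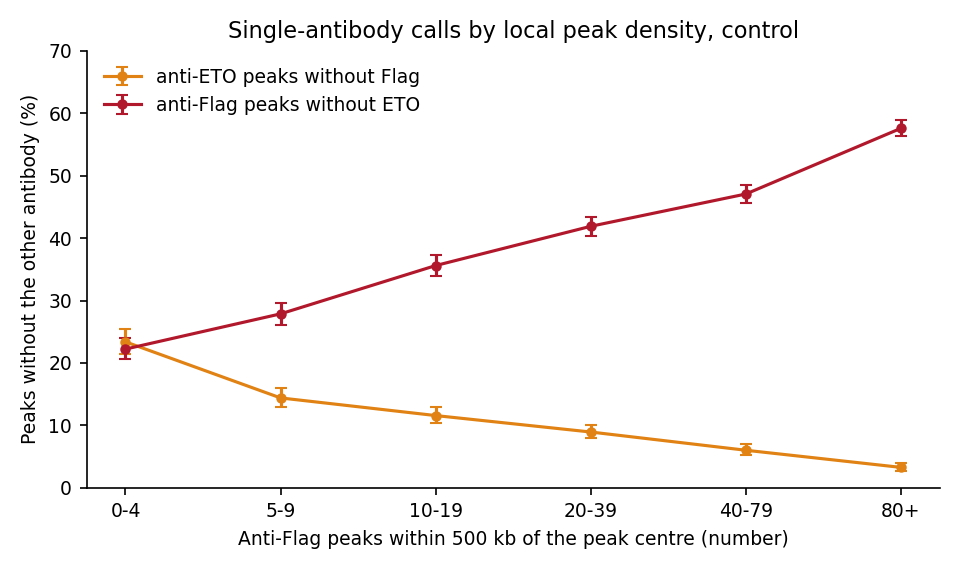
Percent of peaks without the other antibody (y axis) against the number of anti-Flag peaks within 500 kb of the peak centre (x axis, 6 bins), with 95% Wilson intervals. An anti-Flag peak itself is not counted, but the anti-Flag partner of a shared anti-ETO peak is. The anti-Flag line (red) runs from 22.2% to 57.6% and the anti-ETO line (orange) from 23.4% to 3.27%.

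The chromosomes differed in the same sense. Flag-alone peaks made up 52.6% (50.6 to 54.7) of anti-Flag peaks on chromosome 17, 51.8% on 8, 49.8% on 11 and 48.2% on 19, and 27.1% (22.9 to 31.8) on X. ETO-alone peaks made up 26.8% (22.5 to 31.7) of anti-ETO peaks on X and 6.67% (5.18 to 8.54) on 16. Chromosome 17 carried 12.5% of all Flag-alone peaks, against 8.39% of the shared anti-ETO peaks, and chromosome 19 carried 13.4%, against 10.7%.

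The widest peaks of each class, outside chromosome 8, were taken as examples. The widest shared anti-ETO peak spanned 8828 bp next to FAM99A on chromosome 11 (1668257 to 1677084), and the next 8791 bp inside BAHCC1 on chromosome 17 (81422112 to 81430902). The third covered 5798 bp on chromosome 3 (198099861 to 198105658), 47548 bp from FAM157A. All 3 were called by both antibodies after knock-down too. The widest ETO-alone peak had 1190 bp and was centred at -11 bp from the TNPO1 start on chromosome 5 (72816055 to 72817244). The next, of 927 bp on X (47144514 to 47145440), met RBM10 and NDUFB11, a subunit of respiratory complex I. The third, of 921 bp, lay inside CADM2, a cell adhesion gene, on chromosome 3 (84958676 to 84959596). All 3 had an anti-ETO call after knock-down, and the one at TNPO1 had an anti-Flag call there as well. The widest Flag-alone peak had 2845 bp and lay inside BAHCC1 (81416648 to 81419492), at lower coordinates than the wide shared peak of the same gene. The next ones measured 2119 bp on chromosome 16 (89025821 to 89027939) and 1968 bp on chromosome 17 (81349934 to 81351901), both outside genes. All 3 had calls of both antibodies after knock-down.

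Genes with the most shared peaks were also often rich in Flag-alone peaks. BAHCC1, a chromatin reader, had 25 shared anti-ETO and 27 Flag-alone peaks in its body or within 10 kb. GSE1, a subunit of an LSD1 and histone deacetylase complex, had 19 and 25, SEPTIN9, a cytoskeletal GTPase, 16 and 21, and CDH23, a cadherin, 14 and 14. BCOR, the BCL6 corepressor, went the other way, with 21 shared, 3 ETO-alone and 2 Flag-alone peaks. The ranking continued with PLEC, a cytoskeletal linker (16 shared and 15 Flag-alone peaks), MIDN (15 and 6), GRK2, a receptor kinase (13 and 6), ARHGAP45, a GTPase-activating protein (13 and 9), and ARID3A, a DNA-binding factor of B cells (13 and 8). BAHCC1, GSE1, SEPTIN9 and CDH23 span 70.9, 506.7, 219.1 and 419.0 kb, against a median of 24.2 kb over all genes, which widens their windows. MIDN, GRK2 and ARHGAP45 are shorter than that median, with 10.6, 20.1 and 20.7 kb. The part of gene length in these counts was not tested.

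The genes leading by Flag-alone peaks included some with few shared ones. IQANK1 had 31 Flag-alone and 1 shared peak, ZNF623 19 and 2, and ADCK5 17 and 2, all on chromosome 8. MROH1 had 20 and 7 and ARHGAP39 19 and 6, on the same chromosome. VAV1, a guanine nucleotide exchange factor of blood cells, had 20 Flag-alone and 7 shared peaks, and CCDC57 had 17 and 6. Of the 9846 Flag-alone peaks, at least 1 lay at 5985 protein-coding genes, at least 3 at 1539 and 5 or more at 588. The 1480 ETO-alone peaks form a much smaller class, with at least 1 at 1788 genes, at least 3 at 16 and 5 or more at 0. Among the 10 of these 16 with the shortest spans, GABARAP (an autophagy protein), PHF23, CTDNEP1 and DVL2 lie together on chromosome 17, CAMK2N2 and EEF1AKMT4 on chromosome 3, and RENBP and ARHGAP4 on X, so that their windows share peaks. IFI35, an interferon-induced gene, had 3 ETO-alone, 1 shared and 0 Flag-alone peaks, and TMBIM1 had 3, 1 and 1.

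Over all 19974 protein-coding genes, 8764 (43.9%) had a shared anti-ETO peak in the gene body or within 10 kb. Such a window can reach into neighbouring genes, and which gene a peak belongs to was not tested. A further 577 (2.89%) had ETO-alone peaks as their one kind, 1091 (5.46%) had Flag-alone peaks as their one kind, and 161 (0.806%) had both single kinds at separate sites. The other 9381 (47.0%) had none of these, though 5 of them met a shared anti-Flag peak whose anti-ETO partner lay outside the window. Of the 15812 genes with a listed start, 5307 (33.6%) had a shared peak with its centre within 1 kb of the start, 543 (3.43%) had ETO-alone and 709 (4.48%) had Flag-alone peaks there as their one kind. With the anti-Flag list shortened to the ETO length by width, the 10-kb counts of single genes changed to 1658 with ETO alone and 469 with Flag alone.

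Genes of the fusion, its paralogues and its complex were mostly occupied by both antibodies. Of 20 such genes, 15 had a shared peak, against 43.9% of all genes. Single kinds were the one kind at 0 of them, against 2.89% for ETO and 5.46% for Flag over all genes. Another 5 (25%) had no call, against 47.0%. The 20 genes are long, with a median of 94.9 kb against 24.2 kb over all genes, which widens the window. At listed starts 10 of 16 had a shared peak, against 33.6%. RUNX1 had 12 shared and 7 Flag-alone peaks. Of the shared ones, 4 lay at or just upstream of the listed start, where a peak of 2476 bp reached from -1.45 to 1.03 kb, and 3 lay between -163.3 and -157.2 kb, around the far 5′ end of the gene. Another 3 lay between -23.1 and -18.9 kb, 1 of 2257 bp at -139.8 to -137.6 kb, and 1 of 448 bp from 80.007 to 80.45 kb. The Flag-alone peaks measured 173 to 627 bp, 6 of them inside the gene. RUNX2 had 4 shared and 1 Flag-alone peak, RUNX3 4 and 4, and CBFB 4 and 2.

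**Figure D4:**
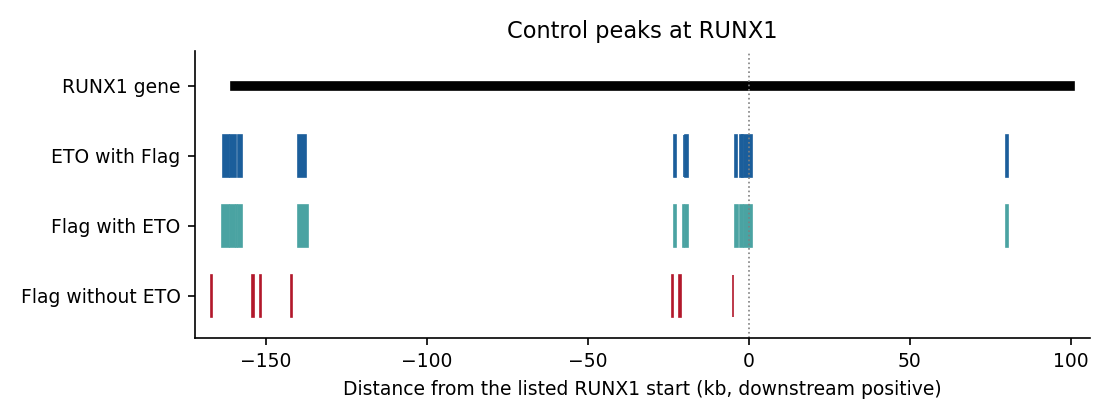
Control peaks at RUNX1 drawn to scale by distance in kb from the listed start (x axis, downstream positive, dotted line at 0), with rows for the gene, shared anti-ETO, shared anti-Flag and Flag-alone peaks. Of the 12 shared anti-ETO peaks, 4 lie within about 4 kb of the start, 3 between -23.1 and -18.9 kb, 1 near -137.6 kb, 3 between -163.3 and -157.2 kb and 1 near 80.45 kb, and the 7 Flag-alone peaks have widths of 173 to 627 bp.

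CBFA2T3 (ETO2), a paralogue of ETO, had 11 shared and 11 Flag-alone peaks, and CBFA2T2, the other paralogue, 2 shared and 0 Flag-alone. All 11 shared anti-ETO peaks of CBFA2T3 had anti-ETO and anti-Flag calls after knock-down, and of its 11 Flag-alone peaks, 9 had an anti-Flag and 2 an anti-ETO call there. LYL1, a bHLH partner of the fusion complex, had 6 shared peaks with widths of 214 to 3525 bp and 1 Flag-alone peak of 170 bp. LMO2, a bridging factor, had 2 shared peaks, of 1044 and 3343 bp, and 0 Flag-alone peaks. Its partner LDB1 had 3 and 3. Of the E proteins, TCF3 had 4 and 4, TCF12 had 1 and 0, and TCF4 had no call. EP300, an acetyltransferase, had 2 shared and 1 Flag-alone peak, PRMT1, an arginine methyltransferase, 3 and 0, JMJD1C 3 and 1, and the ETS factor FLI1 1 and 0. ERG, GATA2, TAL1 and RUNX1T1 had no call of either antibody.

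Of 12 corepressor genes, 8 (66.7%) had a shared peak, against 43.9% of all genes, 1 had ETO alone, 1 had Flag alone and 2 had no call. Over all genes, 2.89% had ETO alone, 5.46% had Flag alone and 47.0% had no call. The corepressor genes had a median length of 75.3 kb, against 24.2 kb over all genes. At listed starts 5 of 11 had a shared peak, against 33.6%. NCOR1, which the ETO moiety binds, had 1 Flag-alone peak of 294 bp on chromosome 17 (16217048 to 16217341). The histone deacetylase genes HDAC1, HDAC2 and HDAC3 had 3, 1 and 4 shared peaks, of which 0, 1 and 1 met the gene body. HDAC2 also had an ETO-alone peak of 210 bp on chromosome 6 (113970519 to 113970728), just downstream of its shared peak, and HDAC1 had 1 ETO-alone peak of 180 bp. KDM1A (the demethylase LSD1) had 1 shared and 3 Flag-alone peaks, RCOR1 3 and 1, SIN3A 3 and 1, and GPS2 1 and 2. The shared anti-ETO peak of GPS2 lay outside the gene, centred 8252 bp after its start. DNMT1, the maintenance DNA methyltransferase, had 1 ETO-alone peak of 187 bp on chromosome 19 (10194723 to 10194909), centred 137 bp after a start, and it had no call of either antibody after knock-down. TBL1X and TBL1XR1, subunits of the NCoR complex, had no call.

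Of 18 myeloid regulators, 15 (83.3%) had a shared peak, against 43.9% of all genes. GFI1B had single calls at separate sites, against 0.806% of all genes, and 2 regulators (11.1%) had no call, against 47.0%. The 18 regulators had a median length of 8.31 kb, and at listed starts 9 of 14 had a shared peak, against 33.6% of all genes. GFI1 had a shared anti-ETO peak of 4038 bp across its promoter on chromosome 1 (92483518 to 92487555), inside an anti-Flag peak of 4551 bp, and a Flag-alone peak of 754 bp beyond it (92488193 to 92488946). Its paralogue GFI1B had 1 ETO-alone peak of 201 bp centred at -787 bp from a start on chromosome 9 (132944644 to 132944844). It also had 2 Flag-alone peaks (133002529 to 133002898 and 133003247 to 133003493). They were centred 24020 and 24676 bp after the listed start nearest to them, which is a different start. SPI1 (PU.1), the master factor of myeloid cells, had 3 shared peaks of 179 to 618 bp and 1 Flag-alone peak of 250 bp. CEBPA, the factor that drives granulocytic differentiation, had 1 shared anti-ETO peak of 1209 bp (33302173 to 33303381 on chromosome 19), which met 2 anti-Flag peaks of 340 and 642 bp. IRF8, a factor of monocytes and dendritic cells, had 5 shared peaks and 0 single ones. IKZF1 had 4 shared and 1 Flag-alone peak, ETV6 5 shared and 1 ETO-alone, EGR2 3 shared and 1 ETO-alone, and CEBPB 2 shared and 1 ETO-alone. CEBPD had 2 shared peaks, CEBPG, EGR1 and GATA1 had 1 each, and MYB and NFE2 had 1 shared and 1 Flag-alone peak each. The GATA1 peak lay outside the gene, centred 15188 bp after a start. MYC had 4 shared and 1 ETO-alone peak. CEBPE and KLF4 had no call.

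Of 20 genes reported as AML1-ETO targets, 15 (75.0%) had a shared peak, against 43.9% of all genes, 3 had Flag alone, against 5.46%, and 2 had no call, against 47.0%. At listed starts 6 of 12 had a shared peak, against 33.6%. OGG1 had 3 shared and 4 Flag-alone peaks, the shared one at its promoter measuring 1671 bp on chromosome 3 (9749314 to 9750984). KIT, a growth factor receptor, had 2 shared peaks, an ETO-alone peak of 235 bp centred 146 bp after its start (54657986 to 54658220 on chromosome 4) and a Flag-alone peak of 418 bp. The shared KIT peaks measured 617 and 1575 bp and were centred 778 and 30420 bp after the start. MPO, the myeloperoxidase gene, had 3 shared, 1 ETO-alone and 3 Flag-alone peaks, and ELANE, neutrophil elastase, 4 shared and 8 Flag-alone. At ELANE, 0 of the shared and 2 of the Flag-alone peaks met the gene body. ID1, an inhibitor of bHLH factors, had 3, 1 and 1, and SELPLG, a ligand of selectins, 2 shared and 2 ETO-alone. CSF1R (the M-CSF receptor) had 2 shared peaks, LAT2 (a signalling adaptor) 4 and UBASH3A 1, with 0 single calls at each. JAG1 (a Notch ligand) and BCL2 (an inhibitor of apoptosis) each had 2 shared and 2 Flag-alone peaks. CD34 and CCND2 had 1 shared and 1 Flag-alone each, and PLCG1 1 shared and 1 ETO-alone.

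CDKN1A had 2 Flag-alone peaks, one of 232 bp over its promoter on chromosome 6 (36678400 to 36678631) and one of 357 bp inside the gene. The cytokine genes IL3 and CSF2 shared 1 Flag-alone peak of 336 bp on chromosome 5 (132063489 to 132063824), which lies between them. It had no call of either antibody after knock-down. POU4F1 had no call.

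Of 18 neutrophil granule genes, 10 (55.6%) had a shared peak, against 43.9% of all genes, and 8 (44.4%) had no call, against 47.0%. Single kinds were the one kind at 0, against 2.89% for ETO and 5.46% for Flag over all genes. At listed starts the order was the other way, with a shared peak at 2 of 10, against 33.6% of all genes. PRTN3 (2 shared and 9 Flag-alone), AZU1 (1 and 6) and ELANE lie side by side on chromosome 19, so their windows share peaks. The whole list met 17 shared anti-ETO, 1 ETO-alone and 20 Flag-alone peaks. For comparison with other tissues, 2 of 15 liver genes (13.3%) and 3 of 16 neuron genes (18.8%) had a shared peak, against 43.9% of all genes. No call was found at 10 (66.7%) and 13 (81.25%) of them, against 47.0%. The neuron genes had a median length of 50.4 kb and the liver genes of 9.83 kb. APOA1 and APOC3, neighbours on chromosome 11, had the same ETO-alone peak. GRIN1, a glutamate receptor gene, had 1 shared, 1 ETO-alone and 6 Flag-alone peaks.

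Genes of general cell functions were also covered. Of 85 cytosolic ribosomal protein genes, 52 (61.2%, against 43.9% of all genes) had a shared peak (RPL10, RPL10A, RPL11 and others), 3 had ETO alone (RPL27, RPS14 and RPS23) and 6 had Flag alone (RPL31, RPL6 and others). Over all genes 2.89% had ETO alone and 5.46% had Flag alone. At listed starts 28 of 68 (41.2%) had a shared peak, 8 had ETO alone and 4 had Flag alone. Over all genes with a listed start these shares were 33.6%, 3.43% and 4.48%. Of 77 mitochondrial ribosomal protein genes, 42 (54.5%, against 43.9% of all genes) had a shared peak. Of the others, 1 had ETO alone (MRPL14), against 2.89% of all genes, and 6 (7.79%) had Flag alone, against 5.46%. At listed starts 34 of 69 (49.3%) had a shared peak, against 33.6%. Of 39 proteasome genes, 26 (66.7%, against 43.9% of all genes) had a shared peak. PSMD7 had ETO alone, against 2.89% of all genes, and PSMD6 (2.56% of the list) had Flag alone, against 5.46%. At listed starts 20 of 34 (58.8%) had a shared peak, against 33.6%. The 69 replication-dependent histone genes lie in clusters and met 65 shared anti-ETO peaks in all. Of them, 61 (88.4%, against 43.9% of all genes) had a shared peak and 0 had ETO alone, against 2.89%. Another 3 (4.35%, against 5.46%) had Flag alone (H2BC9, H3C7 and H4C7, with 2 peaks each). At starts, where windows overlap less, 45 of 64 histone genes (70.3%) had a shared peak, against 33.6% of all genes.

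Of 39 HOX genes, which set position along the body axis, 6 (15.4%) had a shared peak, against 43.9% of all genes. Another 5 (12.8%) had Flag alone, against 5.46%, and 26 (66.7%) had no call, against 47.0%. These genes lie in clusters and are not separate observations, since the whole list met 3 shared anti-ETO, 2 ETO-alone and 2 Flag-alone peaks. Of 246 zinc finger genes on chromosome 19, 90 (36.6%, against 43.9% of all genes) had a shared peak. A further 13 had ETO alone (ZNF253, ZNF383 and others), against 2.89% of all genes. Flag alone was found at 20 (8.13%, against 5.46%; ZNF132, ZNF155 and others). At listed starts the lower shared share was not found, with 75 of 216 zinc finger genes (34.7%), against 33.6% of all genes.

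**Figure D5:**
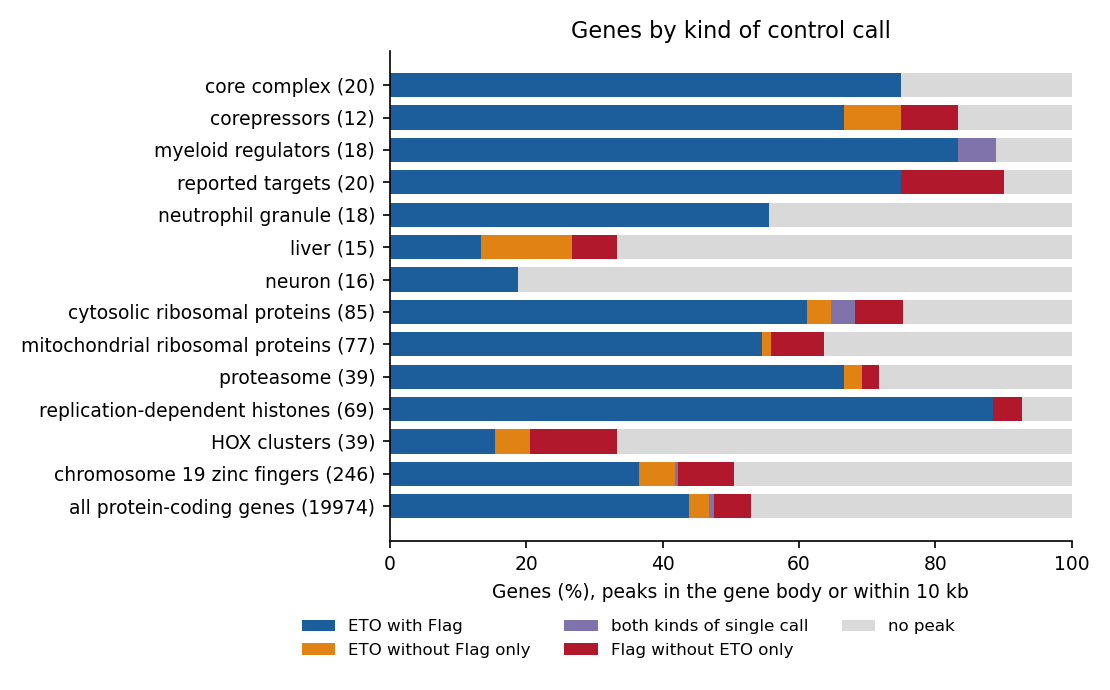
Percent of the genes of each list (x axis, number of genes in brackets) with a shared anti-ETO peak, with 1 single kind, with both single kinds or with no peak in the gene body or within 10 kb. The shared part is 88.4% of histone genes, 83.3% of myeloid regulators and 75.0% of the core complex, and 13.3% of liver genes, 15.4% of HOX genes and 43.9% of all genes.

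The sequence of the promoters was compared over 34789 distinct RefSeq promoters, each 300 bases long (250 before and 50 after a start). Of these, 6919 met a shared anti-ETO peak, 679 an ETO-alone peak and no shared one, 864 a Flag-alone peak and no anti-ETO peak, and 26162 none. The remaining 165 met a shared anti-Flag peak only. The median GC content was 68.0%, 66.7%, 65.0% and 54.3% in that order. The GC box was held by 78.2% of shared, 73.6% of ETO-alone, 67.5% of Flag-alone and 34.6% of uncalled promoters, and by 44.9% of all. The ETS motif was held by 13.3% (12.6 to 14.2), 15.0% (12.5 to 17.9), 10.8% (8.87 to 13.01) and 4.72%, and by 6.78% of all. AP-1 stood at 2.40%, 2.798%, 4.05% and 5.69%, with 4.93% of all, the E-box at 57.2%, 59.2%, 59.8% and 72.3%, with 68.7% of all, and the CEBP motif was held by 0.152% of all.

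The RUNX core was held by 10.7% (9.95 to 11.4) of shared, 8.39% (6.54 to 10.7) of ETO-alone, 9.61% (7.82 to 11.8) of Flag-alone and 13.99% of uncalled promoters, and by 13.1% of all. These shares move with base composition, so promoters of like GC content were also compared. Between 70% and 80% GC, the RUNX core was held by 7.09% (6.17 to 8.14) of shared, 15 of 212 ETO-alone, 2 of 228 Flag-alone (0.877%, 0.241 to 3.14) and 4.38% (3.71 to 5.16) of uncalled promoters. Between 60% and 70% GC the shares were 11.3% (10.2 to 12.6), 6.85% (4.48 to 10.3), 7.62% (5.26 to 10.9) and 9.64%. Between 50% and 60% they were 16.8%, 11.4%, 20.5% (15.4 to 26.8) and 16.7%, so the low Flag-alone share of the most GC-rich bin was not found there. The GC box contrast was small between 70% and 80% GC, at 93.8%, 91.04%, 90.4% and 90.2% in the same order. It was larger at lower GC, with 77.1%, 75.3%, 73.9% and 61.2% between 60% and 70%. Between 50% and 60% the GC box stood at 50.4%, 45.5%, 38.9% and 27.2%. The ETS motif remained more frequent in shared than in uncalled promoters. From the highest to the lowest bin it stood at 10.9% against 5.56%, 15.5% against 8.97% and 16.7% against 5.93%.

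The knock-down libraries, which played no part in sorting the control peaks, gave another reading of each class. Of the shared anti-ETO peaks, 93.9% (93.5 to 94.3) overlapped an anti-ETO peak and 74.8% (74.0 to 75.5) an anti-Flag peak of the knock-down cells. Of the ETO-alone peaks, 65.5% (63.0 to 67.9) overlapped an anti-ETO peak, 22.2% (20.2 to 24.4) an anti-Flag peak and 33.6% neither. Of the Flag-alone peaks, 47.3% (46.3 to 48.3) overlapped an anti-ETO peak, 46.2% (45.2 to 47.2) an anti-Flag peak, 30.5% both and 37.0% (36.0 to 37.9) neither. Flag-alone peaks thus met knock-down ETO calls about as often as knock-down Flag calls. The knock-down lists held 22594 anti-ETO and 25961 anti-Flag peaks, so both are longer than the control lists. With both shortened to the ETO length of the control by width, the shares of Flag-alone peaks were 28.7% and 31.1%, and those of ETO-alone peaks 38.3% and 9.12%. Whether the condition or the calls differ cannot be told apart from 1 list per group.

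Peaks of single antibodies that met a knock-down anti-ETO call lay more often at starts. Of the Flag-alone peaks with a knock-down anti-ETO call, 25.5% (24.3 to 26.8) lay within 1 kb of a start, against 16.3% (15.1 to 17.6) of those with neither call. Of the ETO-alone peaks with a knock-down anti-ETO call 62.1% (58.9 to 65.1) did so, against 46.0% (41.6 to 50.5) of those with neither call. Their median widths were 355 and 275.5 bp for Flag-alone and 269.5 and 224.5 bp for ETO-alone peaks, so that peaks with neither call were also the narrower ones.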

How the data were processed

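The deposited values used here are peak positions (chromosome, start and end, in bp, with no header, score or count), in 1 list per antibody and condition. The submitters' processing notes name the builds hg38 and sacCer3 and the tools fastp 0.19.5, Bowtie2 2.3.5, MACS2 2.2.5 and HOMER 4.8. The calling threshold, the use of the IgG libraries and the handling of replicates are not given in the sources used here. Per the labels, 200000 sorted cells entered each assay, library fragments were cut to 150 to 400 bp by size, and 40 M paired reads of 75 bp were planned per library. The number of single-antibody calls depends on how permissively and how deeply each list was called.

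Groups came from the sample titles. Of 9 deposited lists, the 4 single-antibody lists and the authors' control list of both antibodies were used. Positions are written counting from 1. Overlaps were computed in Python 3.11.15 with numpy 2.4.6 and pandas 2.3.3, and 10 of 10 checks on simulated lists passed, with 1200 of 1200 planted overlaps recovered. Genes, starts and promoters came from RefSeq tables of GRCh38.p14, and 0 list symbols went unmatched. Peak sequences away from promoters were not analysed here.

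Named peaks are the 3 widest of each class, outside chromosome 8. Named genes are the 10 with the most peaks of each class and 13 gene lists written from textbook knowledge. The classes, lists and named items were chosen with earlier results of these data known. No p-value was computed, since 1 list per group gives no spread among libraries. Alternatives changed the overlap rule, the list lengths, the distance limits and the gene set. The comparison within width ranges and the count at either gene end were added after the data were seen. Some items of the lists are not reported here.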

Additional observations from a re-analysis of the deposited data

How the results depend on the processing

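Shortening the anti-Flag list to the anti-ETO length by width moved the most results. The shared share became 72.6% for anti-ETO and 72.4% for anti-Flag, with 3914 ETO-alone and 3942 Flag-alone peaks. The anti-ETO difference in median width was 329 bp, against 238 bp in the lists as deposited. The shared minus single difference near starts was -8.57 points for anti-ETO and 34.9 points for anti-Flag, and the genes with a single kind were 1658 for ETO and 469 for Flag. Requiring an overlap of 50% of both peaks gave shared shares of 68.4% and 42.1%, 4509 ETO-alone peaks, a width difference of 181 bp and a start difference of 24.3 points for anti-Flag. Under that rule the anti-ETO start difference reversed to 3.51 points, and the cause was not tested. Keeping the wider 50% of each list left 761 ETO-alone and 5023 Flag-alone peaks, because fewer peaks enter, with 56.6% of anti-Flag peaks shared and a start difference of 29.8 points. Over merged regions 55.6% of anti-Flag regions were shared. A minimum of 100 bp gave 89.1% of anti-ETO peaks shared.

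Counting gaps of up to 500 bp as overlap gave 92.5% and 64.2% shared, and knock-down anti-ETO and anti-Flag calls at 73.3% and 32.4% of ETO-alone and 58.0% and 57.3% of Flag-alone peaks. With the knock-down lists shortened these shares were 38.3%, 9.12%, 28.7% and 31.1%. A minimum of 100 bp gave 45.3% and 43.3% for Flag-alone peaks. The anti-Flag start difference was 28.9 points at 500 bp, 26.1 at 2.5 kb, 31.0 with protein-coding starts, 31.4 at either gene end with chromosome 8, and 38.0 among peaks under 300 bp. The anti-ETO one was -9.81 from 300 to under 500 bp and -12.4 from 500 to under 1000 bp. In the other 46 computed alternatives the values stayed within 1 counting interval or, for counts, within 1.5 times.

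No paired analysis was possible because the lists give no values per library. Leaving out each replicate was not run for the same reason. Depth cannot be read from positions, so weak and absent binding cannot be told apart where a call is missing.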

Other observations

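Peaks of each class were also set against genes of small RNAs. Transfer RNA genes, of which the table lists 443, were overlapped by 41 shared anti-ETO peaks (0.321%, 0.237 to 0.435), 1 ETO-alone peak and 6 Flag-alone peaks (0.0609%, 0.0279 to 0.133). Small nuclear RNA genes, the RNA parts of the splicing machinery, were overlapped by 26 shared anti-ETO peaks (0.203%), 2 ETO-alone peaks and 0 of 9846 Flag-alone peaks, which allows a share of up to 0.0390%. MicroRNA genes were overlapped by 71 shared anti-ETO peaks (0.555%), 4 ETO-alone peaks (0.270%) and 18 Flag-alone peaks (0.183%). Small nucleolar RNA genes were overlapped by 6, 1 and 4 peaks of these classes, with shares of 0.0469%, 0.0676% and 0.0406%, whose intervals overlap. The intervals are Wilson intervals over peaks, and they cover counting error only. The classes differ in the length they cover, with 8.53 Mb for shared anti-ETO, 0.445 Mb for ETO-alone and 3.49 Mb for Flag-alone peaks. Per covered Mb, peaks over microRNA genes numbered 8.33, 8.99 and 5.15 in that order, over transfer RNA genes 4.81, 2.25 and 1.72, over small nuclear RNA genes 3.05, 4.49 and 0, and over small nucleolar RNA genes 0.704, 2.25 and 1.14. The ETO-alone values rest on 1 to 4 peaks each.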
